A study of Mus musculus with 10 samples.

Results

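The BCL2 family comprises the proteins that decide whether the outer mitochondrial membrane of a cell is opened during apoptosis. The 10 members described here were chosen by name: every non-control probe whose gene name in the scanner files was *Bcl2*, *Bcl2l1*, *Mcl1*, *Bcl2l2*, *Bax*, *Bak1*, *Bcl2l11*, *Bbc3*, *Bmf* or *Bad* was taken. All 10 were found among the 34821 gene names of the array, with 15 of its 55681 probes, 1 probe each for 5 genes and 2 probes each for the other 5. Of these, 4 genes encode proteins that restrain apoptosis, 2 encode the proteins that form the pore, and 4 encode BH3-only proteins.

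The study asked how FGF5, a mitogen made near the seminiferous tubules, acts on GFRα1+ spermatogonia, the stem cell population of the mouse testis, and measured gene expression with Agilent arrays of the mouse genome read in the single color Cy3, 1 array per sample. In culture, wild-type germline stem (GS) cells, which self-renew when given FGF2 and GDNF, were kept without both factors for 3 days and then for 24 hr with 100 ng/mL FGF5 (2 samples) or without it (2 samples). The cells of both groups had therefore lost FGF2 and GDNF, and no array of cells with both factors was analysed here, so that the culture comparison measures the addition of FGF5 to deprived cells and not the deprivation. From testes of 2.5-month-old *Gfrα1-GFP* mice, GFP+ cells were sorted as the GFRα1+ fraction, 3 samples from WT and 3 from *Fgf5*-/- animals, whose *Fgf5* allele is named go-moja in the methods. Both groups carried the *Gfrα1-GFP* knock-in allele, which the GS cells are not said to carry. The sample labels give C57BL/6 as the strain of all samples, while the methods derive the GS cells from an intercross of C57BL/6 and ICR. Neither source says how many animals were combined in a sorted sample.

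In healthy cells BCL2, BCL-XL (the product of *Bcl2l1*), MCL1 and BCL-W (the product of *Bcl2l2*) bind and hold the pore-forming proteins BAX and BAK in check. BH3-only proteins such as BIM (*Bcl2l11*), PUMA (*Bbc3*), BMF and BAD are produced or activated on growth factor loss, DNA damage or detachment, and occupy the restraining proteins or engage the pore formers. Much of this control acts on the protein, through phosphorylation of BAD and BIM and rapid turnover of MCL1, and is outside the reach of an mRNA array. In the male germ line, BAX and BCL-W are required for spermatogenesis in the mouse.

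Each probe is 60 bases long and was printed once. The scanner files place each in the mouse genome by mm9 coordinates. The *Bcl2l11* probe with the higher signal was designed on transcript variant 1 and runs over chr2:127972893-127983988 on the plus strand, a span of 11096 bases that crosses an intron, and the *Bcl2* probe was designed on transcript variant 2 and lies at chr1:108608970-108609029 on the minus strand. Both fall on coding sequence of the motifs through which the family members bind each other, which is why they are shown. Capitals mark the codons for a glycine and an aspartate of the BH3 motif in *Bcl2l11* and for a pair of glycines of the BH1 motif in *Bcl2*, and each is written 5′ to 3′.
Bcl2l11: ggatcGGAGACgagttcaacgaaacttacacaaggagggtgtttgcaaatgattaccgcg
Bcl2: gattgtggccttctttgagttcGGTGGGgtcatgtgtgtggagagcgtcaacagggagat
The other *Bcl2l11* probe was designed on another transcript of the gene and spans 682 bases at chr2:127954736-127955417. The probes of this gene can thus read different transcript forms.

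Values are given on the log2 scale after subtraction of each array's 75th percentile, so that 0 is the signal of that percentile and a difference of 1 is 2-fold. The percentile lay between 575 and 1091 scanner units over the 10 arrays, the scanner software flagged from 55.3% to 65.9% of probes as well above background, and no spot was saturated. The 4 culture arrays shared 1 slide and the 6 sorted arrays another, so that slide and material cannot be told apart; on the sorted slide the WT arrays occupied 1 row and the *Fgf5*-/- arrays the other, so that row and genotype cannot be told apart either. Markers of undifferentiated spermatogonia (9 of 9) and of germ cells in general (4 of 4) were well above background on every array. Lists of other cell types were largely so too, such as 5 of 6 Sertoli genes in each group and 8 of 8 peritubular and fibroblast genes in culture. *Gfra1* itself had means of −1.52 with FGF5, −3.08 without it and 0.79 in sorted WT cells. The array labelled *Fgf5*-/- 1 stood apart from the other sorted arrays. It had 65.9% of its probes above background against 55.3% to 61.6%, and the *Fgf5* probe was well above background on it (−3.42) but on no other sorted array, WT included, where it lay between −6.90 and −5.47. Whether that probe reads the mutated part of *Fgf5* is not given in the sources used here. The sorted differences are therefore also given without that array.

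In the plot of the members by array, cultured and sorted WT cells were free of overlap for 5 of the 10 members. These include *Bak1*, which lay at background in culture. The values of *Bcl2*, *Mcl1*, *Bcl2l2*, *Bax* and *Bbc3* overlapped. In culture, for each member tested, samples 1 and 2 of a condition lay further apart than the means with and without FGF5.

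**Figure D1:**
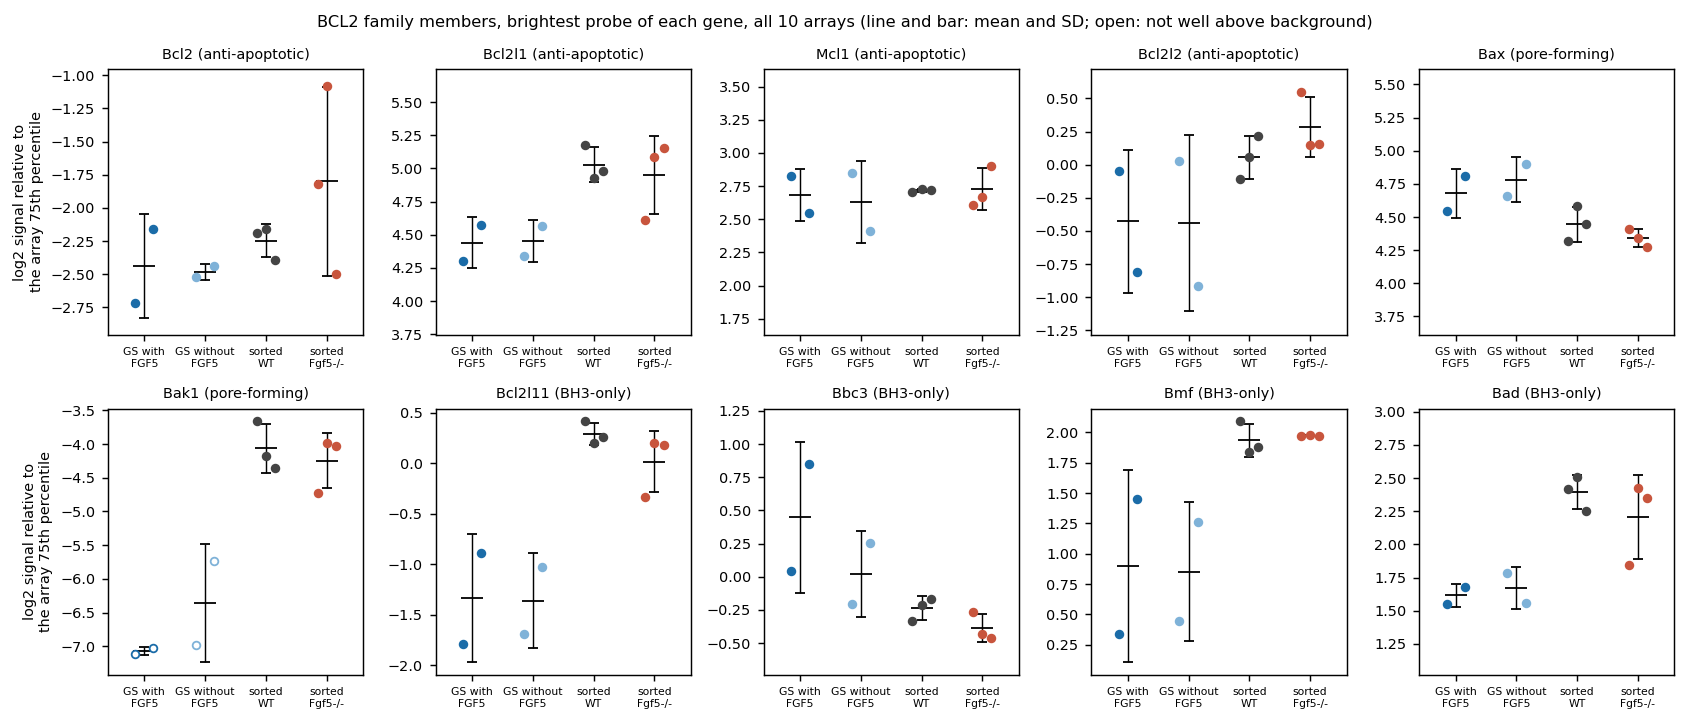
log2 signal relative to the array's 75th percentile (y axis, a separate scale in each panel) of the probe with the higher mean signal of each of the 10 members, by group (x axis). Points are arrays, lines and bars are the mean and SD, and open points are arrays on which the probe was not well above background, as for *Bak1* on all 4 culture arrays.

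Does FGF5 change the expression of the family in GS cells deprived of FGF2 and GDNF? No member passed the test. Of the 15 probes, 13 (9 of 10 genes) stood well above background in both cultures of a condition, and were tested among 34608 probes in all. With limma and Benjamini-Hochberg adjustment 0 of the 13 passed, and over all probes 0% did. At an unadjusted p under 0.05 the count was 0 of 13 as well, against 2.55% of all probes. With and without FGF5 the values were free of overlap for 1 of the 13 probes (22.7% of all tested probes). The median log2 difference of the main probes of the 9 genes was 0.02, beside −0.03 over all probes.

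Among the genes that restrain apoptosis, *Bcl2l1* measured 4.31 and 4.58 with FGF5 and 4.34 and 4.56 without. The log2 difference was −0.01, with a 95% confidence interval from −0.52 to 0.49. *Mcl1*, whose short-lived product is a main survival factor of many stem and progenitor cells, measured 2.82 and 2.55 with FGF5 and 2.85 and 2.41 without, a log2 difference of 0.06 (interval −0.55 to 0.66). The second probes gave −0.12 for *Bcl2l1* (−0.81 to 0.58) and −0.05 for *Mcl1* (−0.57 to 0.48). The ranges overlapped for both genes on either probe, and so did those of *Bcl2*. *Bcl2* measured −2.71 and −2.16 with FGF5 and −2.52 and −2.44 without, a log2 difference of 0.05 (−0.59 to 0.68). *Bcl2l2* measured −0.04 and −0.81 with FGF5 and 0.03 and −0.91 without on its main probe, a log2 difference of 0.02 with the wide interval −1.11 to 1.14.

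The second *Bcl2l2* probe had the largest log2 difference of the family in culture, and it was the single one without overlap. It measured −2.84 and −2.56 with FGF5 and −2.94 and −3.85 without, a log2 difference of 0.70 ± 0.35 (SE, interval −0.22 to 1.61). The value rested on the lower of the cultures without FGF5, without which it was 0.25, and the main probe of the gene did not share it. Without the first culture lacking FGF5 it was 1.15.

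Of the pore formers, *Bax* measured 4.55 and 4.81 with FGF5 and 4.66 and 4.90 without, a log2 difference of −0.10 (interval −0.61 to 0.40). *Bak1* lay at background in all 4 cultures and was not tested. Its measured values of −7.11 and −7.03 with FGF5 and −6.98 and −5.74 without therefore do not give its level.

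Among the BH3-only genes, *Bcl2l11* measured −1.78 and −0.88 with FGF5 and −1.69 and −1.03 without. The log2 difference was 0.02 with an interval from −1.03 to 1.08, so that a change of 2-fold in either direction would not have been resolved. *Bmf*, whose product is held at the cytoskeleton until released, measured 0.33 and 1.46 with FGF5 and 0.44 and 1.26 without, with a log2 difference of 0.04 (−1.22 to 1.31). The arrays of 1 condition lay further apart than the conditions for both genes. *Bad* measured 1.55 and 1.68 with FGF5 and 1.78 and 1.56 without, a log2 difference of −0.06 (−0.52 to 0.40), and its second probe differed by 0.00 (−0.41 to 0.41). The second *Bcl2l11* probe was above background on 1 of 4 arrays and was not tested. *Bbc3* measured 0.04 and 0.85 with FGF5 and −0.21 and 0.25 without, and its log2 difference of 0.43 ± 0.34 (interval −0.47 to 1.33) was the largest among the main probes, with overlapping groups. Without the second culture with FGF5 it was 0.022, and without the first 0.83.

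The samples in culture were numbered 1 and 2 within each condition, and the main probes above background that spread most followed that number. *Bmf* was higher in sample 2 than in sample 1 by 1.12 with FGF5 and by 0.81 without. *Bcl2l11* was higher in sample 2 by 0.90 with FGF5 and by 0.66 without, and *Bbc3* by 0.81 and 0.46. *Bcl2l2* on its main probe went the other way, by −0.76 and −0.94, and the main probe of *Mcl1* did so by −0.28 and −0.44, while its second probe was higher in sample 2 by 0.27 and 0.28. On their main probes the BH3-only genes other than *Bad* were thus higher in the samples numbered 2 of both conditions. Some second probes did not follow the number: *Bcl2l2* differed by 0.28 with FGF5 and −0.90 without, and *Bcl2l1* by −0.16 and 0.63. The second *Bcl2l11* probe, above background on 1 of 4 arrays, differed by 3.25 and −1.06. With 1 array for each number and condition these are values without a test. *Col1a1*, a collagen gene of fibroblasts, moved with the number the other way: in units of the 75th percentile its signal was 11.2 and 13.1 in the samples numbered 1 and 2.96 and 4.07 in those numbered 2. The other 7 genes of the peritubular and fibroblast list, all above background in culture, summed to 3.56 and 3.25 in the samples numbered 1 and 3.55 and 3.46 in those numbered 2, and so did not follow it. The part of *Col1a1*-expressing cells in these values was not tested. In RNA from a cell population, fewer cells of a type and less RNA per cell cannot be told apart.

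Does loss of *Fgf5* in the animal change the family in GFRα1+ cells? All 15 probes were tested among 30283. Again no member passed: 0 of 15 at an adjusted p under 0.05, as for 0% of all probes, and 1 of 15 at an unadjusted p under 0.05, as for 6.79% of all probes. The groups did not overlap for 3 of 15 probes, against 16.2% of all tested probes. The median log2 difference of the main probes was −0.09, beside −0.03 over all probes.

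The probe at the lowest p was the second probe of *Bcl2l1*. It measured −0.82, −0.85 and −0.90 in WT and −0.63, −0.63 and −0.60 in *Fgf5*-/- cells, all 3 mutant arrays above all 3 WT arrays. The log2 difference was 0.24 ± 0.09 (SE) (limma adjusted p = 0.728), and it was 0.24 without the array *Fgf5*-/- 1. The main *Bcl2l1* probe, at 5.18, 4.93 and 4.98 in WT and 4.61, 5.08 and 5.16 in the mutant, gave a log2 difference of −0.08 (interval −0.49 to 0.34), and 0.09 without that array. The 2 probes of the gene thus differed in sign by a small amount, the first being set by the low value of 1 array.

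*Mcl1* was tightly held in WT cells. Its main probe measured 2.71, 2.72 and 2.72 in WT and 2.60, 2.67 and 2.90 in *Fgf5*-/- cells, a log2 difference of 0.01 (interval −0.27 to 0.29), and 0.07 without *Fgf5*-/- 1. The second probe measured 1.78, 1.86 and 1.89 in WT and 1.95, 1.97 and 2.02 in the mutant, without overlap, and its log2 difference was 0.14 ± 0.10 (adjusted p = 0.764), and 0.15 without that array.

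*Bcl2* varied most among the mutant samples. It measured −2.19, −2.16 and −2.39 in WT and −1.82, −1.08 and −2.50 in *Fgf5*-/- cells, so that the mutant values enclosed the WT values. The log2 difference was 0.45 with an interval from −0.37 to 1.27, also 0.45 without *Fgf5*-/- 1, but 0.086 without *Fgf5*-/- 2 and 0.80 without *Fgf5*-/- 3. *Bcl2l2* measured −0.11, 0.06 and 0.22 in WT and 0.54, 0.15 and 0.15 in the mutant, a log2 difference of 0.23 (−0.15 to 0.60), which was 0.10 without *Fgf5*-/- 1. Its second probe measured −4.47, −4.56 and −4.50 in WT and −4.27, −5.16 and −4.91 in the mutant, above background there only on *Fgf5*-/- 1. The log2 difference was −0.27 ± 0.23, and −0.52 without that array (unadjusted p = 0.00439, adjusted p = 0.536).

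*Bax* measured 4.32, 4.58 and 4.44 in WT and 4.41, 4.34 and 4.27 in *Fgf5*-/- cells, a log2 difference of −0.10 (−0.38 to 0.17), and −0.14 without *Fgf5*-/- 1. *Bak1* was well above background on all 6 sorted arrays and measured −3.66, −4.17 and −4.36 in WT and −4.72, −3.99 and −4.03 in the mutant. Its log2 difference of −0.18 (−0.82 to 0.46) became 0.06 without *Fgf5*-/- 1. Neither pore former was separated by genotype.

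Of the BH3-only genes, *Bcl2l11* measured 0.42, 0.20 and 0.26 in WT and −0.33, 0.20 and 0.18 in *Fgf5*-/- cells. The groups did not overlap, but the lowest WT and the highest mutant array stood at 0.205 and 0.203, and the log2 difference of −0.28 (−0.69 to 0.14) was −0.10 without *Fgf5*-/- 1. The second *Bcl2l11* probe had the opposite sign: it measured −3.43, −3.60 and −3.35 in WT and −3.23, −3.20 and −3.41 in the mutant, with overlap, and differed by 0.18 (−0.11 to 0.47), or 0.16 without that array. No direction is therefore given for *Bcl2l11*. *Bbc3* measured −0.34, −0.21 and −0.16 in WT and −0.27, −0.43 and −0.46 in the mutant, with a log2 difference of −0.15 (−0.42 to 0.12) and −0.21 without that array. *Bmf* measured 2.09, 1.84 and 1.88 in WT and 1.97, 1.98 and 1.97 in the mutant, a log2 difference of 0.04 (−0.23 to 0.30), the same without that array. *Bad* measured 2.42, 2.51 and 2.25 in WT and 1.84, 2.42 and 2.35 in the mutant, a log2 difference of −0.19 (−0.62 to 0.25), which was −0.01 without that array. Its second probe differed by −0.10 (−0.59 to 0.39), and by 0.12 without that array. On the main probes *Fgf5*-/- 1 was the lowest mutant array for *Bad*, *Bcl2l11*, *Bak1*, *Bcl2l1*, *Mcl1* and, narrowly, *Bmf*. It was the highest for *Bcl2l2*, *Bax* and *Bbc3*, and lay between the others for *Bcl2*.

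**Figure D2:**
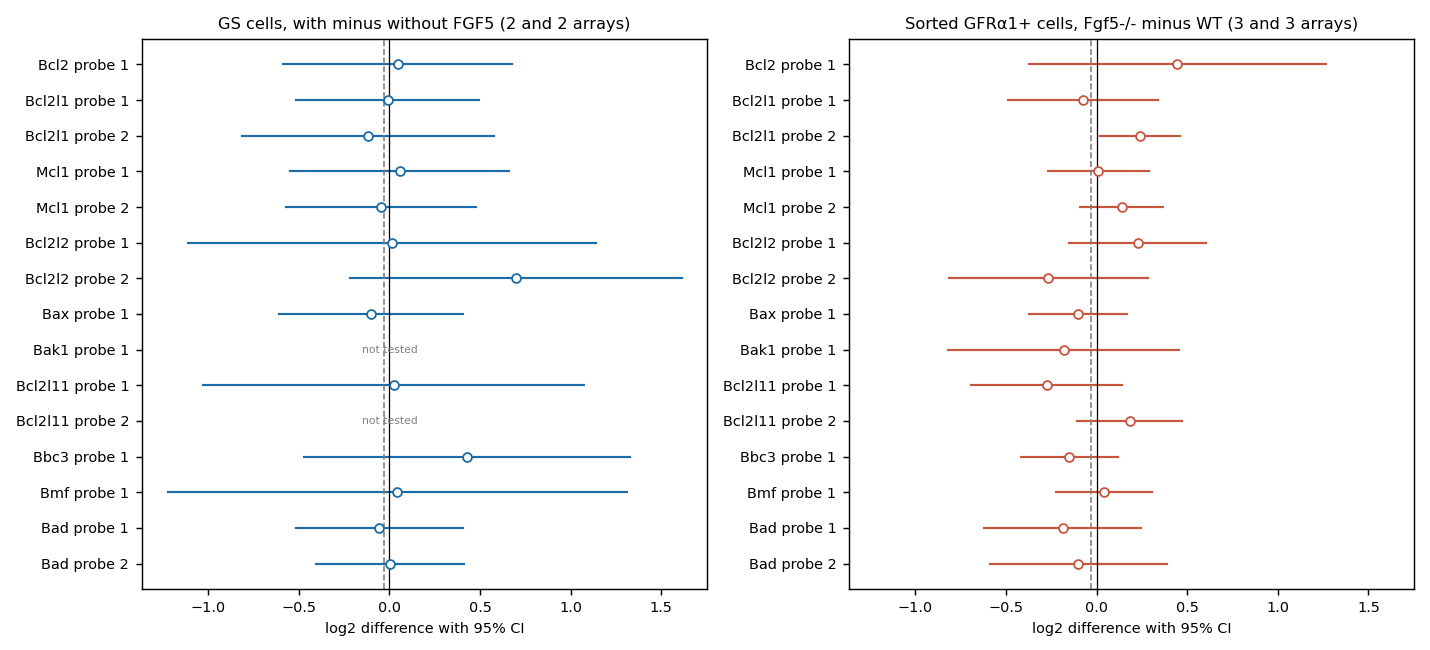
log2 difference (x axis) of each member probe (y axis) with its 95% confidence interval from limma, for GS cells with minus without FGF5 (left) and sorted *Fgf5*-/- minus WT cells (right). All points are open because none passed the adjusted threshold, the dashed line is the median of all tested probes, and the intervals in culture reach beyond 1 for *Bcl2l2*, *Bcl2l11*, *Bbc3* and *Bmf*.

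The direction of FGF5 was opposed in the experiments, added in culture and lost in the mutant, so that a shared response would have opposite signs. The difference between the effect of FGF5 in culture and the effect of intact *Fgf5* in the sorted cells was fitted in 1 model of all 10 arrays, and it passed for none of the 13 member probes tested in both experiments (lowest unadjusted p = 0.360, for the second *Bcl2l2* probe). The precision set what could be seen. On simulated arrays of the same size and spread, a log2 change of 1 was recovered for 1% of changed probes in the culture design and for 58% in the sorted design, and a log2 change of 2 for 86% and 96%. These shares are those of independent noise, while equally numbered culture samples deviated together (correlation 0.64), so they may overstate what the culture comparison could detect. No measured probe passed in culture, *Etv5* included, with means of 3.68 with FGF5 and −0.24 without. In culture the intervals of the main probes of *Bcl2*, *Bcl2l1*, *Mcl1*, *Bax* and *Bad* lay between −0.61 and 0.68, and in sorted cells those of *Mcl1*, *Bax*, *Bmf* and *Bbc3* lay between −0.42 and 0.30.

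How does the family in deprived GS cells compare with that in GFRα1+ cells taken from the testis? Here the groups differed widely over the whole array. The mean of the 4 culture arrays was set against the 3 WT arrays in a fit of all 10 arrays, and of 35823 tested probes 61.3% passed, 23.7% lower and 37.6% higher in culture, with a median log2 difference of 0.25 over all probes. Among the members, 5 of 10 genes passed on the main probe and all 5 were lower in the cultured cells: *Bak1*, *Bcl2l11*, *Bmf*, *Bad* and *Bcl2l1*. Of these, *Bak1* was at background on all 4 culture arrays and entered the test through the sorted cells alone. None of the 10 was higher. By probe, 8 of 15 passed as lower and 1 as higher, and the groups did not overlap for 10 of 15 probes, against 68.1% of all tested probes. The median log2 difference of the 10 main probes was −0.54. Because material, strain, slide, growth in medium and factor deprivation all differed between the groups, they cannot be told apart here.

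The BH3-only genes held 3 of the 5 lower members. *Bcl2l11* measured −1.78, −0.88, −1.69 and −1.03 on the culture arrays and 0.42, 0.20 and 0.26 on the WT arrays. Every culture array lay below every sorted array of either genotype, and the log2 difference was −1.64 ± 0.26 (SE), 3.12-fold lower in culture (adjusted p = 0.000846). *Bmf* measured 0.33, 1.46, 0.44 and 1.26 in culture and 2.09, 1.84 and 1.88 in WT cells, a log2 difference of −1.06 ± 0.28 or 2.09-fold (adjusted p = 0.0105). *Bad* measured 1.55, 1.68, 1.78 and 1.56 in culture and 2.42, 2.51 and 2.25 in WT cells, a log2 difference of −0.75 ± 0.16 or 1.68-fold (adjusted p = 0.00455). All culture values of these 3 genes lay below all WT values.

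*Bbc3* went the other way without passing. It measured 0.04, 0.85, −0.21 and 0.25 in culture and −0.34, −0.21 and −0.16 in WT cells, a log2 difference of 0.47 ± 0.20 (adjusted p = 0.0724). Without the first culture with FGF5 the difference was 0.67 and the adjusted p 0.0100. It passed under 5 of 23 other settings in all, the rest being the percentile over probes above background (0.66), normexp (0.45), the mean of both sorted groups (0.55) and the cultures with FGF5 alone (0.68).

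Of the pore formers, *Bak1* was not well above background in culture (0 of 4 arrays) and was so in all 3 WT samples, at −3.66, −4.17 and −4.36. Set against the lowest signal that counted as above background, *Bak1* was 1.79-fold lower in culture on the main values, without a test. This is not a strict bound, since a probe can lie above that signal without being flagged. The limma adjusted p of 0.000239 is that of the measured log2 difference of −2.65 ± 0.32, which rests on culture values at background. After normexp this measured difference was −0.35. *Bax* measured 4.55, 4.81, 4.66 and 4.90 in culture and 4.32, 4.58 and 4.44 in WT cells, with overlap, and its log2 difference was 0.28 ± 0.13 (adjusted p = 0.0817). The difference of *Bax* was close to the median of 0.25 that all probes showed, and *Bax* passed, as higher in culture, under quantile normalization (0.54), when the percentile was taken over the probes above background (0.47), and against the mean of both sorted groups (0.34).

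Among the genes that restrain apoptosis, *Bcl2l1* alone passed on its main probe. It measured 4.31, 4.58, 4.34 and 4.56 in culture and 5.18, 4.93 and 4.98 in WT cells, a log2 difference of −0.58 ± 0.17 (adjusted p = 0.0150), and its second probe gave −0.58 ± 0.15 as well (adjusted p = 0.0111), a call lost with the percentile over probes above background (−0.39, adjusted p = 0.0563). Without the array WT 1 the main probe gave −0.51 and an adjusted p of 0.0577. *Mcl1* at 2.82, 2.55, 2.85 and 2.41 in culture and 2.71, 2.72 and 2.72 in WT cells differed by −0.06 (interval −0.39 to 0.28), and it turned to 0.15 under quantile normalization and 0.13 with the percentile over probes above background. *Bcl2* at −2.71, −2.16, −2.52 and −2.44 in culture and −2.19, −2.16 and −2.39 in WT cells differed by −0.21 (−0.91 to 0.48). *Bcl2l2* on its main probe differed by −0.49 ± 0.27 (adjusted p = 0.139), and by −0.73 without the first culture lacking FGF5 (adjusted p = 0.0348).

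The median shift of all probes itself ran from 0.12 under quantile normalization to 0.43 with the percentile over probes above background. Relative to the main value of 0.25 the 4 lower members measured in both materials lay further down: the log2 differences minus the median of all probes were −1.89 for *Bcl2l11*, −1.31 for *Bmf*, −0.995 for *Bad* and −0.83 for *Bcl2l1*. These 4 stayed lower in culture under each of the 23 other settings. *Bak1* did so in the 22 that tested it, but its culture values lay at background and sorted signal alone let it in. That count therefore adds no support for *Bak1*.

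**Figure D3:**
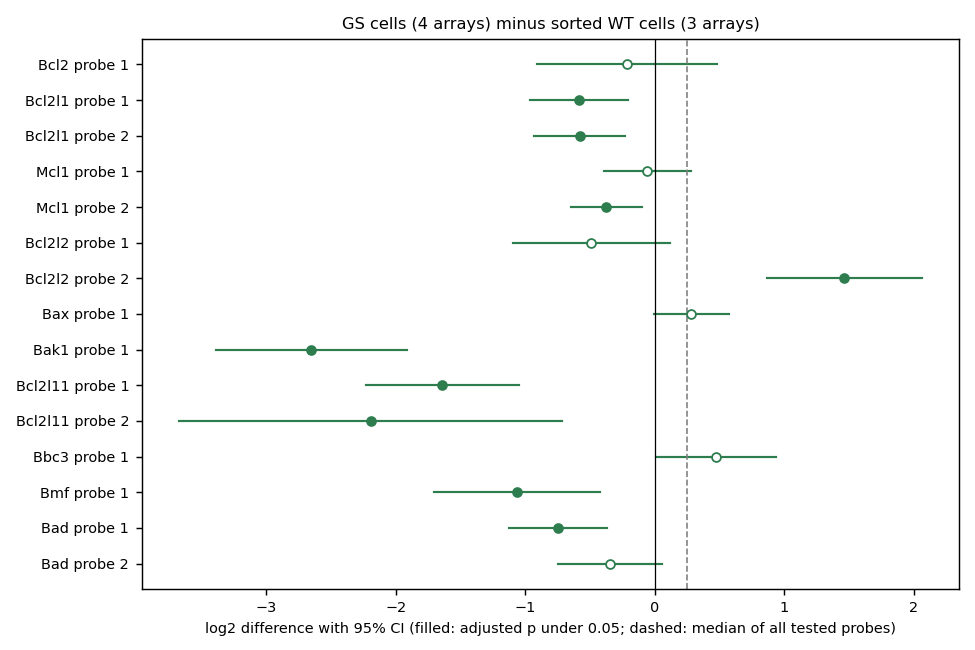
log2 difference (x axis) of each member probe (y axis) between GS cells and sorted WT cells with its 95% confidence interval, filled where the adjusted p was under 0.05, with a dashed line at the median of all tested probes. The point of *Bak1* is a measured value from arrays at background in culture, and the 2 probes of *Bcl2l2* lie on opposite sides of 0.

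The 5 genes with 2 probes differed in how well their probes matched. For *Bcl2l11* the second probe measured −6.95, −3.70, −5.46 and −6.52 in culture, above background on 1 of 4 arrays, and −3.43, −3.60 and −3.35 in WT cells. It was lower in culture by a log2 difference of −2.19 ± 0.65 (adjusted p = 0.0175), in the same direction as the main probe. This call was lost without the second culture lacking FGF5 (−1.93, adjusted p = 0.0566), without WT 3 (−2.14, adjusted p = 0.0511), with the cultures with FGF5 alone (−1.86, adjusted p = 0.0738) and after normexp (−0.35, adjusted p = 0.0773). For *Bad* the second probe gave −0.35 ± 0.18 (adjusted p = 0.117), which passed without *Fgf5*-/- 1 through a smaller estimate of the spread (adjusted p = 0.0101), and for *Mcl1* it gave −0.37 ± 0.12 (adjusted p = 0.0250), a call lost when any of 4 arrays was left out: the first culture with FGF5, the first without it, WT 2 or WT 3 (adjusted p from 0.0731 to 0.0830). The *Mcl1* call was also lost under 4 other settings, with the highest adjusted p (0.201) for the percentile over probes above background.

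*Bcl2l2* was the gene whose probes disagreed. Its probes lie side by side on the same transcript, at chr14:55506840-55506899 and chr14:55507008-55507067 of mm9, on the plus strand. The second probe measured −2.84, −2.56, −2.94 and −3.85 in culture and −4.47, −4.56 and −4.50 in WT cells, all culture values above all WT values. It passed as higher in culture by a log2 difference of 1.47 ± 0.26 or 2.76-fold (adjusted p = 0.00163). The main probe measured −0.04, −0.81, 0.03 and −0.91 in culture and −0.11, 0.06 and 0.22 in WT cells and was lower without passing. On the mutant arrays the second probe was above background on 1 of 3. No direction is therefore given for *Bcl2l2*.

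**Figure D4:**
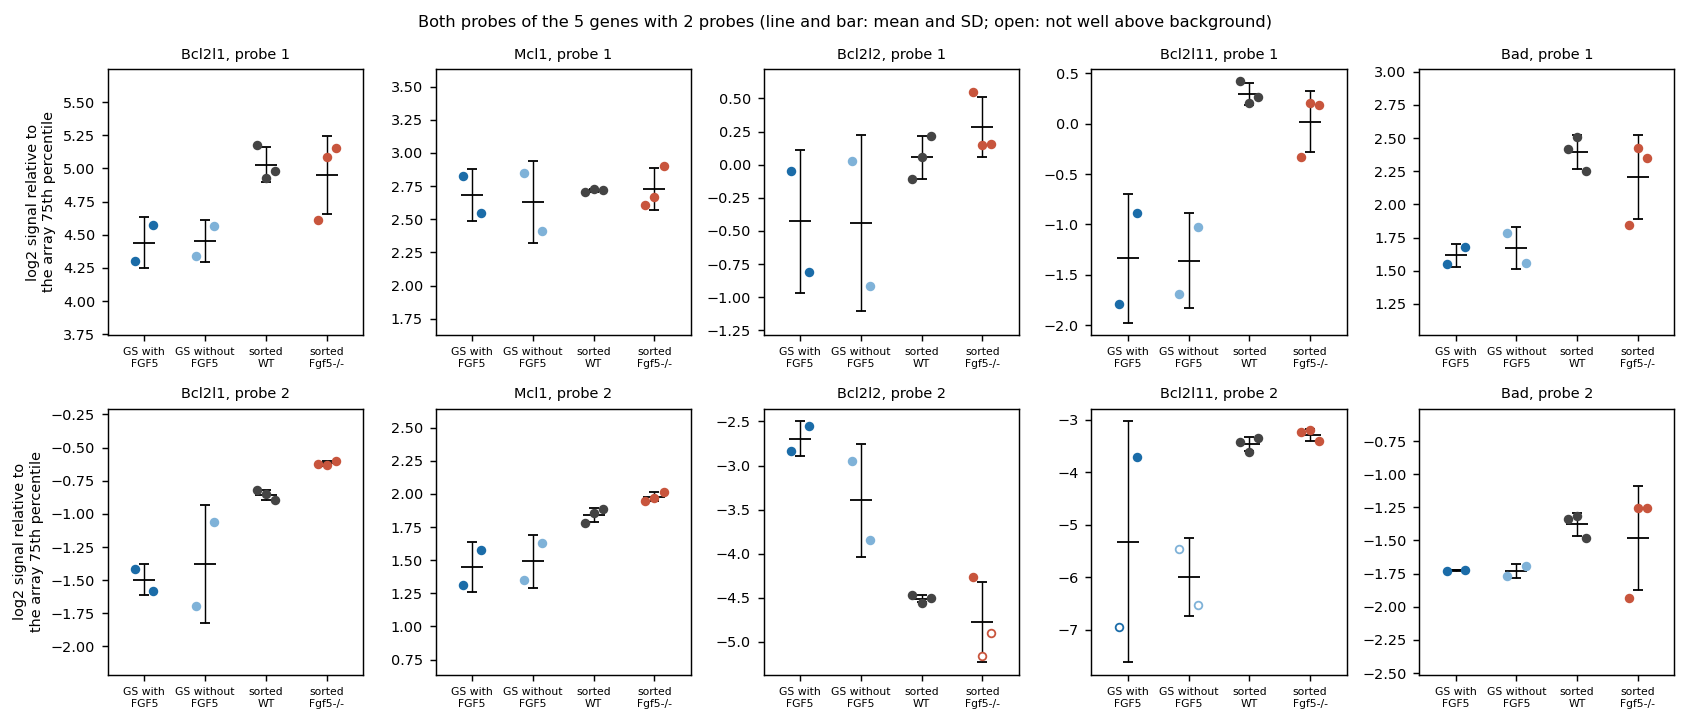
log2 signal relative to the array's 75th percentile (y axis, a separate scale in each panel) of both probes of the 5 genes with 2 probes, by group (x axis), with the mean and SD and open points where a probe was not well above background. The probes of *Bcl2l1* shift together between cultured and sorted cells, while those of *Bcl2l2* shift in opposite directions.

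Markers of other cell types differed between the materials, in units of the 75th percentile, but in several lists 1 gene made up most of the sum. The peritubular and fibroblast list ran from 6.51 to 16.3 in culture and from 4.95 to 5.79 in WT cells, and from 3.25 to 3.56 and from 1.98 to 2.23 without *Col1a1*. The endothelial list ran from 8.06 to 9.66 and from 3.77 to 4.64, nearly all of it *Kdr*, without which it was lower in culture (0.359 to 0.451 against 0.498 to 0.641), with *Tek*, an endothelial receptor, at background on every culture array. The Leydig list ran from 4.98 to 6.65 and from 1.56 to 1.95, nearly all of it *Cyp17a1*. The macrophage list ran from 3.39 to 4.22 and from 1.35 to 1.81, with *Lyz2* at background on every array, and the Sertoli list was lower in culture, from 2.46 to 3.95 against 5.01 to 6.63. Undifferentiated spermatogonial markers summed to between 96.5 and 103 in culture and between 140 and 152 in WT cells. Without *Zbtb16* these sums were 32.6 to 53.3 and 92.3 to 98.1. Markers of differentiating spermatogonia, among them *Kit*, summed to between 58.3 and 81.6 in culture and between 117 and 139 in WT cells (4 of 4 above background on every array). Most of the culture sum was *Sohlh1*, without which the list ran from 6.64 to 10.5 and from 57.5 to 75.1. Spermatid markers summed to between 0.837 and 1.03 in culture and between 6.28 and 8.43 in WT cells, with *Acrv1* at background throughout. The part of these lists in the differences of the members was not tested.

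The members sit in a wider apoptosis machinery, for which 58 further genes were listed in 7 groups, 56 of them on the array and 51 tested in each comparison. Each was read on its main probe alone, so that another probe of the same gene may differ, as those of *Bcl2l2* did. With FGF5 in culture 0 of 51 passed, and 0 did at an unadjusted p under 0.05, against 2.55% of all probes. Between *Fgf5*-/- and WT cells 0 of 51 passed. At an unadjusted p under 0.05 the count was 1 of 51, against 6.79% of all probes, so that it does not exceed their share. The gene was *Cdkn1a*, the p53 target that halts the cell cycle, and its groups did not overlap, as for 16.2% of all probes. It measured −0.89, −0.56 and −0.77 in WT and −1.48, −1.52 and −1.53 in *Fgf5*-/- cells. The log2 difference was −0.78 ± 0.12 (limma unadjusted p = 0.000477, adjusted p = 0.728), and −0.79 without *Fgf5*-/- 1. In culture *Cdkn1a* measured −0.21 and −1.34 with FGF5 and −0.19 and −1.59 without, following the sample number. Between the sorted groups *Trp53* itself differed by −0.22 and *Mdm2*, its antagonist, by −0.05.

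Between cultured and WT cells 22 of the 51 passed, 17 lower and 5 higher in culture (43.1% in all, 33.3% lower and 9.8% higher, against 61.3%, 23.7% and 37.6% of all probes), with a median log2 difference of −0.27 beside 0.25 over all probes. The same shares of all probes are the background of the group counts, each over few genes. Among the other BCL2 relatives 6 of 10 tested genes were lower and 1 higher. The lower genes were *Bik*, *Pmaip1*, *Bok*, *Hrk*, *Bcl2l12* and *Bnip3l*. *Bik*, a BH3-only gene, was lower by 4.38-fold (log2 difference −2.13 ± 0.21, adjusted p = 8.71e-05). *Bcl2l13*, which encodes a mitochondrial relative, was the 1 higher gene of that group (1.81 ± 0.13, 3.51-fold).

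In the apoptosome and caspase group 3 of 7 were lower and none higher. *Casp9*, the initiator caspase activated after cytochrome c release, had the largest drop of all listed genes, from 4.32, 4.24 and 4.24 in WT cells to 1.52, 1.82, 1.48 and 1.81 in culture (log2 difference −2.61 ± 0.13, 6.10-fold). Among the inhibitors of apoptosis and their antagonists 2 of 8 were lower, and *Birc5*, whose product survivin also serves in mitosis, was lower by 3.89-fold. In the death receptor group 2 of 8 were higher and 1 lower: *Fasl*, the ligand of FAS, was higher by 6.50-fold (log2 difference 2.70 ± 0.29) and *Tnfrsf10b*, the mouse TRAIL receptor, by 2.97-fold, while *Cflar*, which blocks caspase-8 activation, was lower by 5.24-fold. *Fas* itself was above background on 1 of 4 culture arrays and on no sorted array and was not tested.

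Of the p53 family and its targets 2 of 9 were higher, *Trp73* by 2.10-fold and *Trp63* by 1.42-fold, and none was lower. Of the transcription factors known to act on BH3-only genes 3 of 6 were lower (*Foxo3*, *E2f1* and *Foxo4*) and none higher, and of the genes of MCL1 turnover 2 of 3 were lower (*Fbxw7* and *Usp9x*).

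**Figure D5:**
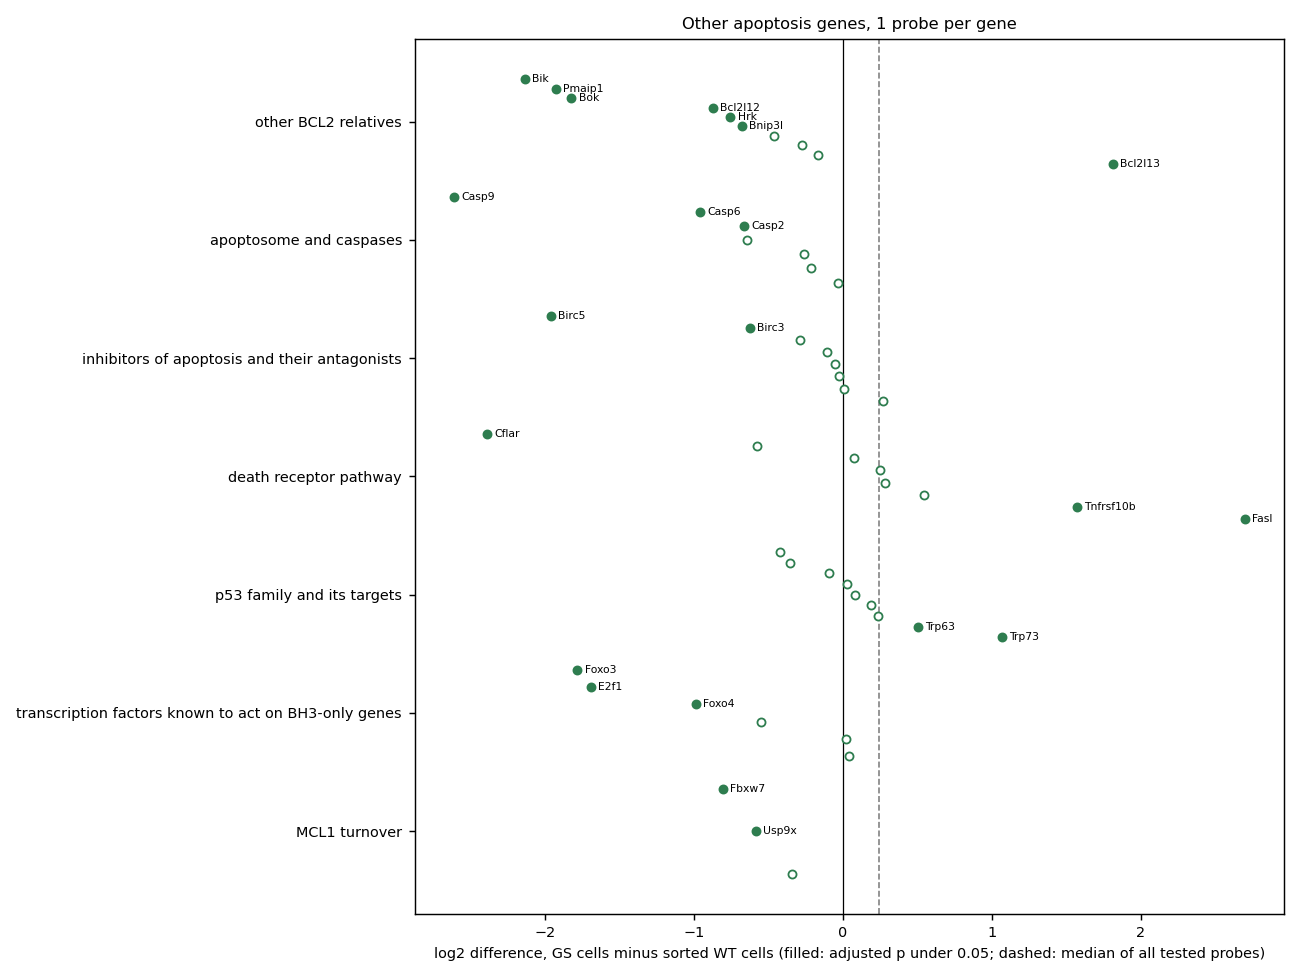
log2 difference between GS cells and sorted WT cells (x axis) of the 51 tested genes of 7 apoptosis groups (y axis), 1 point per gene, filled and named where the adjusted p was under 0.05, with a dashed line at the median of all tested probes. The named genes of the caspase and MCL1 turnover groups all lie left of 0 and those of the p53 group right of it.

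FOXO3, a transcription factor that growth factor signaling keeps out of the nucleus, is known to act on *Bcl2l11* and *Bbc3*. *Foxo3* measured 0.30, −0.05, 0.40 and 0.35 in culture and 2.09, 1.87 and 2.13 in WT cells, a log2 difference of −1.78 ± 0.15 (3.44-fold lower, adjusted p = 4.54e-05), and with FGF5 it differed by −0.25 ± 0.19, which did not pass. Over the 18 RefSeq promoter windows of the 10 members (GRCm38.p6, 250 bases before to 50 after a transcription start), the letters TGTTTAC or their reverse complement GTAAACA occurred in 2 (11.1%), 1 of *Bcl2l11* and 1 of *Bbc3*, and in 3.65% of all 32851 windows. The letters CACGTG, which read the same on both strands, occurred in 2 of the 18 (11.1%), 1 of *Bax* and 1 of *Bbc3*, and in 7.15% of all windows. The 250 bases before the first *Bcl2l11* start, at chr2:128125788-128126037 on the plus strand, and a short piece of the *Bbc3* window, at chr7:16310084-16310110 on the plus strand, are shown with the FOXO letters in capitals, since these genes moved in opposite directions between the materials, *Bcl2l11* past the threshold and *Bbc3* not.
Bcl2l11: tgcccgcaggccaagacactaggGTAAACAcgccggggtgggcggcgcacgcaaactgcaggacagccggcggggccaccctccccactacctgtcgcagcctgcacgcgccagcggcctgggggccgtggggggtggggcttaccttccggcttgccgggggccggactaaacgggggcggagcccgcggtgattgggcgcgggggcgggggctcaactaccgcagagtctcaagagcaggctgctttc
Bbc3: ctggcgggttTGTTTACaaacaatggg
The letters lie 227 bases before the first start of *Bcl2l11* and 167 before a later start of *Bbc3*. In *Bbc3* they are downstream of the first start, whose window ends at chr7:16309632. A match of letters describes the sequence and not binding.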

How the data were processed

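The authors deposited the scanner output of 10 arrays, with the background-subtracted intensity of each spot on a linear scale from Feature Extraction (10.7.1.1 per the file headers, 10.7.3.1 per the submitters' processing notes), and a table of log2 values that they had normalized in GeneSpring, which differs from the log2 intensity by 1 constant per array.

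Intensities were floored at 1, logged, and shifted by each array's 75th percentile, taken from its 59305 spots other than controls. Spots flagged as uneven or as outliers were left out. Groups came from the sample labels. A probe entered a test if 1 group of the fit or more had it well above background in all samples. Tests used limma 3.58.1 in R 4.3.3 (lmFit, eBayes, two-sided, Benjamini-Hochberg over all tested probes, threshold 0.05) without a block, once per experiment and once over all 10 arrays with 4 group means. The design text calls the samples of each group independent experiments, and no source says that equal numbers pair samples across groups. The main probe of a gene is the one with the highest mean log2 value over all arrays. A member at background on all arrays of a group is set against the lowest signal that counted as above background. The number of arrays limits the precision. All members were named with every probe. Other apoptosis genes were named in the experiments with FGF5 if past the threshold, or else at the lowest unadjusted p under 0.05 without overlap, and between materials as the 4 largest differences in each direction; *Trp53*, *Mdm2*, *Foxo3*, *E2f1*, *Foxo4*, *Trp63*, *Fas*, *Pmaip1*, *Bok*, *Hrk*, *Bcl2l12*, *Bnip3l*, *Fbxw7* and *Usp9x* were named after their values were seen.

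The procedure was tested on simulated data with known changes for each comparison. Alternatives were quantile normalization, normexp correction with an offset of 50, the authors' table, other percentiles, floors, filters and probe rules, an intensity trend, a replicate block and leaving out each array. Promoter sequences are from RefSeq (GRCm38.p6). The members and lists were chosen with earlier results of these data known.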

Additional observations from a re-analysis of the deposited data

How the results depend on the processing

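The counts of members passing in culture and in sorted cells were 0 under every alternative run, and between materials the count ran from 4 to 8, with 8 when cultured cells were set against the mean of both sorted groups. Among the other apoptosis genes 19 to 27 passed between materials. With the replicate block 0 members passed in culture and 0 in sorted cells (*Bbc3* in culture 0.43 ± 0.14, adjusted p = 0.687), while over all probes in culture the number at an unadjusted p under 0.05 went from 882 to 2481. Deviations of equally numbered samples correlated at 0.64 in culture and at −0.42, −0.16 and −0.15 in sorted cells. In culture equally numbered samples thus deviated together, and the block lowered the SE of *Bbc3* from 0.34 to 0.14. In sorted cells they did not. With 2 samples per group the culture value is a single number, and unequally numbered samples give −0.64. Unequally numbered sorted samples correlated between −0.48 and 0.48. These values do not tell whether the numbers pair samples. The main fits were left without a block because no source says that the numbers pair samples. The main culture intervals therefore contain the spread between the numbers. The changes of sign concern differences that did not pass in either setting, and the cause was not tested. In culture normexp gave 0.052 for the main probe of *Bad*, 0.054 for that of *Bcl2l1* and −0.011 for the second probe of *Bad*, for which the authors' table gave −0.0033. In sorted cells quantile normalization gave 0.076 for *Bcl2l1* and 0.040 for *Bax*, normexp −0.033 and the authors' table −0.0025 for *Mcl1*, and the mean of a gene's probes 0.081 for *Bcl2l1* and −0.020 for *Bcl2l2*. Between materials *Mcl1* became 0.15 under quantile normalization and 0.13 with the percentile over probes above background, and *Bcl2l2* went from −0.49 to 0.49 as the mean of its probes, which disagree in sign.

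Leaving out 1 array at a time moved the culture differences from −0.16 to 0.28 for *Mcl1* (second probe −0.19 to 0.10), −0.23 to 0.32 for *Bcl2*, −0.43 to 0.48 for *Bcl2l11*, −0.15 to 0.13 for *Bcl2l1* (second probe −0.43 to 0.20), −0.45 to 0.49 for *Bcl2l2* (second probe 0.25 to 1.15), 0.022 to 0.83 for *Bbc3*, −0.24 to 0.028 for *Bax*, −0.52 to 0.60 for *Bmf*, and −0.17 to 0.055 for *Bad* (second probe −0.035 to 0.041). It moved the sorted differences from 0.086 to 0.80 for *Bcl2*, −0.081 to 0.069 for *Mcl1*, −0.18 to 0.092 for *Bcl2l1*, −0.33 to 0.056 for *Bak1*, −0.010 to 0.12 for *Bmf* and −0.21 to 0.12 for the second probe of *Bad*, and the difference of *Mcl1* between materials from −0.17 to 0.051. Of the calls between materials, *Bcl2l11* on its main probe, *Bmf* and *Bad* held in each alternative that tested them. The call of *Bak1* did too, but this gene entered the test through the sorted cells alone, so that holding adds no support. The *Bak1* difference was −1.20 with a floor of 16 and −0.35 after normexp, since its culture signals lay at background.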
